A study of Mus musculus with 9 samples.

Results

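The genes described here are 38 genes of the cell cycle, which cells use to copy their DNA and divide, among them Cdkn1a, an inhibitor of division. They were taken by symbol, as all probe sets of the array whose annotation names a single gene and whose gene is on the list. By this rule 37 of the 38 genes were found, on 84 probe sets, among 18193 genes with such a probe set, and Ccnb1 (cyclin B1) had none. Of the 37 genes, 32 passed the filter on dim probe sets with 49 probe sets and are called measured below. Bub1, Bub1b, Kif20a, Cdc6 and Tyms did not pass it.

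The mice were BALB/c adult males, and the RNA came from brain tissue at the injection sites in the striatum, taken 2 days after injection. The HS group received BV-HSVtk, a gene transfer vector made from an insect baculovirus, purified by high-speed centrifugation. The MC+HS group received the same vector after membrane chromatography combined with centrifugation at high speed. Both vector groups were given 100000000 viral particles in 10 µL on each side, while the mock group was given Sf9 insect cell medium, free of baculovirus, that had gone through the MC+HS purification. Each group held 3 mice with 1 array each, which limits the precision of every value below. HS differs from mock in both the vector and the purification, and these cannot be told apart in that comparison. Levels are scaled signals in intensity units, after each array's median was moved to a common value. Differences are on the log2(signal + 16) scale with their standard error (SE) from limma.

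A cell that divides makes D-type and E-type cyclins and loads the MCM2-7 helicase onto DNA in G1 phase. It then copies the DNA with PCNA-bound polymerases, using nucleotides from ribonucleotide reductase and thymidine kinase. It also makes cyclin A2, the B-type cyclins and their kinase Cdk1. Last it separates its chromosomes with the Aurora and Polo-like kinases, the kinetochore and the anaphase-promoting complex. Most of these genes are transcribed only in cycling cells, so in adult brain, where neurons do not divide, they come from few cells, such as oligodendrocyte precursors, progenitors of the subventricular zone, and, after injury, microglia, astrocytes, vessel cells and blood leukocytes. Cdkn1a encodes p21, which binds cyclin-dependent kinases and PCNA, is induced by p53 and by other signals, and is also made by cells that do not divide. In bulk tissue, fewer cells of a type and less RNA per cell cannot be told apart.

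The promoters of the genes on which the results turn are shown first, since dividing-cell genes are known to share short promoter elements and Cdkn1a is known for another. Each is the 250 bases before a RefSeq transcription start in build GRCm38.p6, 5′ to 3′ on the gene's strand. Capitals mark, on either strand, the CCAAT box (CCAAT), the cell cycle homology region (TTTGAA), the E2F-like letters TTCCCGC and TTGGCGC, the GC box (GGGCGG) and the p53 response element. The first line is the upstream start of Cdkn1a at chr17:29090729-29090978 on the plus strand, and the next is its downstream start at chr17:29093519-29093768 on the plus strand. Tk1 lies at chr11:117826015-117826264, Mcm6 at chr1:128359706-128359955 and Mki67 at chr7:135716380-135716629, all on the minus strand.
Cdkn1a, upstream start: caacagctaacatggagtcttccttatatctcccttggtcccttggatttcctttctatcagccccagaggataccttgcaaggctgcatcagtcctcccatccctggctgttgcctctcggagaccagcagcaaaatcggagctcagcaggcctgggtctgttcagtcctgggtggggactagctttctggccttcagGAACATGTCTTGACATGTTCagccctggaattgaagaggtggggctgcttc
Cdkn1a, downstream start: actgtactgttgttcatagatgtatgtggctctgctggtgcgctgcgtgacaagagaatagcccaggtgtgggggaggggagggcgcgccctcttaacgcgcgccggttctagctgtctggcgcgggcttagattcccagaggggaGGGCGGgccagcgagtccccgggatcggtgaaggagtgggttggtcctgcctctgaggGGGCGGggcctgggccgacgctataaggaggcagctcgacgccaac
Tk1: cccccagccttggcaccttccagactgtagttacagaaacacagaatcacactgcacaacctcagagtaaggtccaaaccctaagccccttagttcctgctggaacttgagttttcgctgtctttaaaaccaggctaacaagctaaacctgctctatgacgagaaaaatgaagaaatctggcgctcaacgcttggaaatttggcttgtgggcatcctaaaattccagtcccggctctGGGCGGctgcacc
Mcm6: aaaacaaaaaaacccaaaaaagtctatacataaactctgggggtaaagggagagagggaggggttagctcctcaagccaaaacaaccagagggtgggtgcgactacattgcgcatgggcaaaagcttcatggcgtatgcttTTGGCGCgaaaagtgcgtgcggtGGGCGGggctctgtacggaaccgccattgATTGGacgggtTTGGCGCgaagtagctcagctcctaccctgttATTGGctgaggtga
Mki67: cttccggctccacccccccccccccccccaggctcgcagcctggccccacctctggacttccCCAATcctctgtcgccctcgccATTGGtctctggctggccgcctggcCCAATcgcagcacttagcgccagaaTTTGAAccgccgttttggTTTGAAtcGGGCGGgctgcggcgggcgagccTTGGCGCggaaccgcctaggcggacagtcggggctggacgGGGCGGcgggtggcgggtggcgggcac

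The upstream start of Cdkn1a held a p53 response element of 20 bases, with at most 1 mismatch to its pattern, starting 51 bases before the start. Its downstream start held GC boxes at 104 and 46 bases before the start and none of the other letters searched. Mki67 held the most kinds of element of the 5 promoters, with 3 CCAAT boxes, 2 cell cycle homology regions, 1 E2F-like match and 2 GC boxes. Mcm6 held 2 CCAAT boxes, 2 E2F-like matches and 1 GC box, while Tk1 held 1 GC box. Promoter entries were at hand for 32 members, with 35 promoters in all. The CCAAT box was in 27 of these 35 (77.1%), against 33.8% of all 32851 mouse promoters, searched over the same 250 bases before the start. The GC box was in 25 (71.4% against 32.7%), TTTGAA in 9 (25.7% against 16%), and TTCCCGC and TTGGCGC in 5 each (14.3% against 3.82% and 1.97%). Of the 35, only the upstream start of Cdkn1a held the p53 response element, which 25 of all promoters (0.0761%) held. A match of letters is a description of the sequence and not a measured binding site.

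How far the 37 genes stood above the array's background differed by gene. As no detection calls were used here, a line was drawn on each array at the 95th percentile of 160 probe sets of chemosensory receptor and other genes not made in brain. The line lay at 85 to 153 deposited intensity units on 8 arrays and at 267 on HS replicate 1. With a probe set counted as above it when all 3 arrays of a group were, 23 members were above the line in at least 1 group, namely 19 in mock, 12 in HS and 23 in MC+HS. Over all probe sets the shares were 53.8%, 30.8% and 53.1%. A member counts when any of its probe sets is above, so counts of members cannot be set against shares of single probe sets. Counted by probe set, 36 of the 84 member probe sets were above in at least 1 group. The lower count in HS moved with the raised line of HS replicate 1. On HS replicates 2 and 3, 30 members were above the line on both arrays. Counted by probe set, these were 46 of the 84 member probe sets, beside 59.5% of all probe sets. A line at the 99th percentile left 11 members in all.

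Above the line in all 3 groups were 10 members, namely Ccnd1 (cyclin D1), Ccne1 (cyclin E1), the helicase subunits Mcm2, Mcm4, Mcm5 and Mcm7, the polymerase clamp Pcna, the large ribonucleotide reductase subunit Rrm1, Cdkn1a, and Ube2c, the E2 enzyme of the anaphase-promoting complex. Another 14 members had no probe set above the line in any group. They were the mitotic kinases Aurka, Aurkb and Plk1, the spindle checkpoint genes Bub1 and Bub1b, the motors Kif11, Kif20a and Cenpe, the spindle protein Nusap1, the helicase subunits Mcm3 and Mcm6, the helicase loader Cdc6, and Tyms and Tk1, which make thymidine nucleotides. Of these 14, 9 passed the filter and were tested, so their values carry more background than those of the brighter genes.

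**Figure D1:**
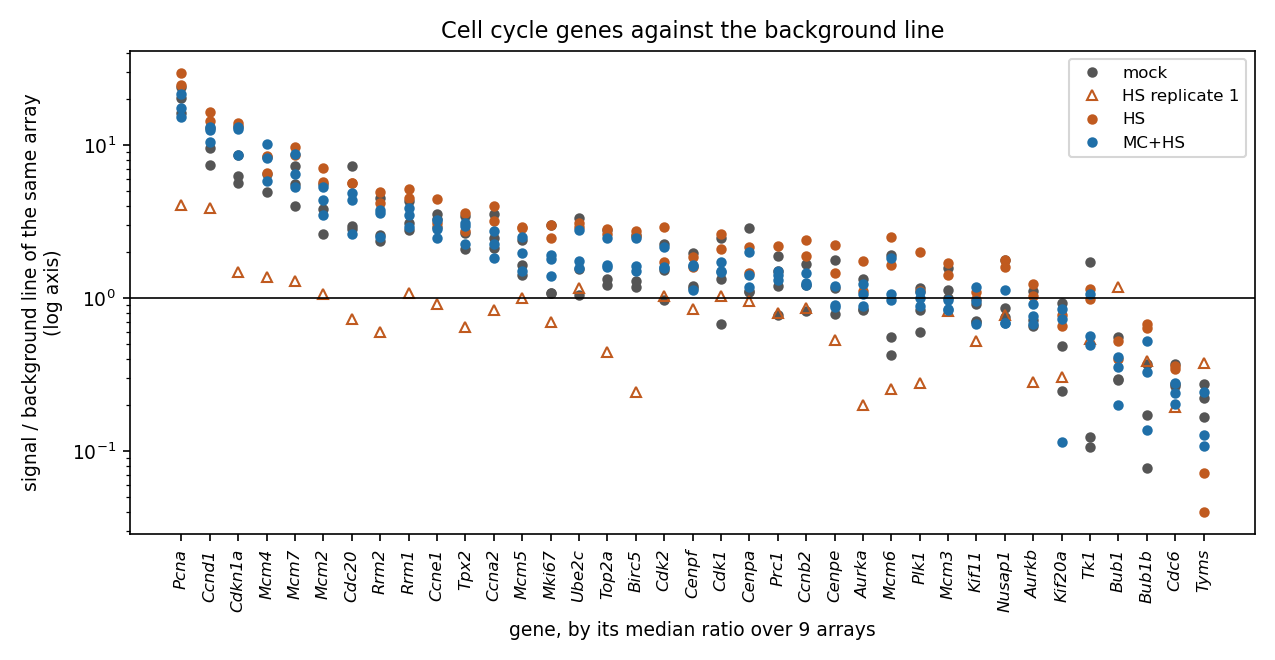
Signal of each member's brightest probe set divided by the background line of the same array (log axis), with 1 point per array and the genes ordered by their median ratio; the horizontal line at 1 is the background line. Pcna, Ccnd1 and Cdkn1a stand furthest above the line, the open triangles of HS replicate 1 lie low because its line was at 267, and 14 members, among them Tk1 and Mcm6, were above the line in no group.

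On this array Pcna had the brightest probe set of the members. Its scaled signals were 2160, 2240 and 1950 on the mock arrays, 1080, 2240 and 2380 on HS, and 2160, 1900 and 1990 on MC+HS. Apart from HS replicate 1 they lay in a narrow band in which the groups overlapped. Levels of different probe sets cannot be set against each other as amounts of RNA, so brightness says only how well a gene stood above its background.

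HS replicate 1 stood apart over the whole array. Its median correlation with the other arrays was 0.805, against 0.972 to 0.982 for the other 8, and the SD of its log2 signals was 1.54 against 2.17 to 2.39. Dim probe sets departed from the other arrays in both directions on it. The checkpoint kinase Bub1, below the filter, had a deposited signal of 314 on HS replicate 1 and 25.6 to 61.4 on the other 8 arrays, and a dim second probe set of Mcm3 had 310 against 3.44 to 21.8. Other dim probe sets were low on it, such as 1 of Kif11 at 11.3 against 48.5 to 84.3, and 1 of Top2a at 17.8 against 36.9 to 111. Some bright members were low on it, such as Pcna at 1080 and the brightest probe set of Cdkn1a at 397. Probe sets of the same gene differed in this. The other measured probe set of Cdkn1a, given below, read above all mock arrays on it. Ccnd1 at 1040 lay among the mock arrays on its brightest probe set. Its other measured probe sets, at 312 and 227, were lowest of all arrays on HS replicate 1. Every comparison is therefore given with and without this array. Markers of striatal neurons, of the labelled tissue, summed to 18610 to 25075 on 8 arrays and to 5419 on HS replicate 1, with 7 of 9 markers measured.

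One mock array was high for the proliferation genes. Mock replicate 2 was the highest of the 3 mock arrays for 29 of the 32 measured members, against 33.2% of all probe sets. The exceptions were the motor Kif11, the spindle factor Tpx2 and Ccne1. The median excess of mock replicate 2 over the mean of mock replicates 1 and 3 was 0.39 log2 units over the members and 0.03 over all probe sets. For 14 members the excess was over 0.5 log2 units, which 3.54% of all probe sets reached. In 17 of 32 members mock replicate 2 was also above all 3 MC+HS arrays, beside 25.6% of all probe sets. In these 29 members the mock mean is therefore higher with this array than without it.

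The pattern was clearest in the standard markers of dividing cells. Mki67, the gene of the Ki-67 antigen used to stain cycling cells, read 116, 281 and 131 on the mock arrays, 185, 184 and 286 on HS, and 191, 193 and 181 on MC+HS. Mock replicate 2 thus lay with HS replicate 3 at the top, and mock replicates 1 and 3 lay below all 6 vector arrays. On HS replicate 1 Mki67 was below the background line of that array, which lay at 267. Top2a, the topoisomerase that untangles replicated chromosomes, read 144, 258 and 148 on mock, 118, 212 and 250 on HS, and 246, 178 and 206 on MC+HS. Mock replicate 2 was the highest of all 9 arrays for Top2a. Cdc20, the activator of the anaphase-promoting complex, read 307, 682 and 357 on mock, 194, 427 and 545 on HS, and 485, 478 and 340 on MC+HS. Again mock replicate 2 was the highest array and the groups overlapped.

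Some other genes of M phase did likewise. Cdk1, the kinase that starts mitosis, read 144, 230 and 82.8 on mock, 276, 156 and 247 on HS, and 172, 159 and 195 on MC+HS. Cenpa, the histone variant that marks centromeres, read 119, 269 and 134 on mock, 256, 162 and 136 on HS, and 200, 127 and 184 on MC+HS. Mock replicate 2 was the highest mock array in both genes, by 0.97 log2 units in Cdk1 and by 1 log2 unit in Cenpa over the mean of the other mock arrays. Ube2c read 168, 312 and 128 on mock, 311, 231 and 277 on HS, and 276, 189 and 203 on MC+HS, with an excess of 1.01. Birc5 (survivin), a subunit of the chromosomal passenger complex, had an excess of 0.7. The excess was smaller in Aurka, Aurkb, Plk1 and Cenpf, at 0.29, 0.31, 0.34 and 0.39. It was 0.03 in Kif11 and -0.28 in Tpx2.

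The largest excesses were in 2 genes of S phase that did not stand above the background line. Tk1, the thymidine kinase of S phase, read 12.8, 159 and 15.7 on mock, 144, 72 and 105 on HS, and 108, 59.8 and 64.4 on MC+HS, with an excess of 2.54 log2 units. Mcm6, a helicase subunit, read 60.7, 179 and 52.3 on mock, 67.6, 188 and 154 on HS, and 183, 104 and 138 on MC+HS, with an excess of 1.43. In both genes mock replicates 1 and 3 were lower than all 6 vector arrays and mock replicate 2 lay among or above the vector arrays. Both read below the background line of HS replicate 1, which lay at 267. The excess was 0.13 in Pcna, 0.33 in Ccnd1 and 0.25 in Cdkn1a, the genes furthest above the line. It was 1.01 in Cdc20 and 0.54 in Rrm2, which were also above the line in mock and MC+HS.

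**Figure D2:**
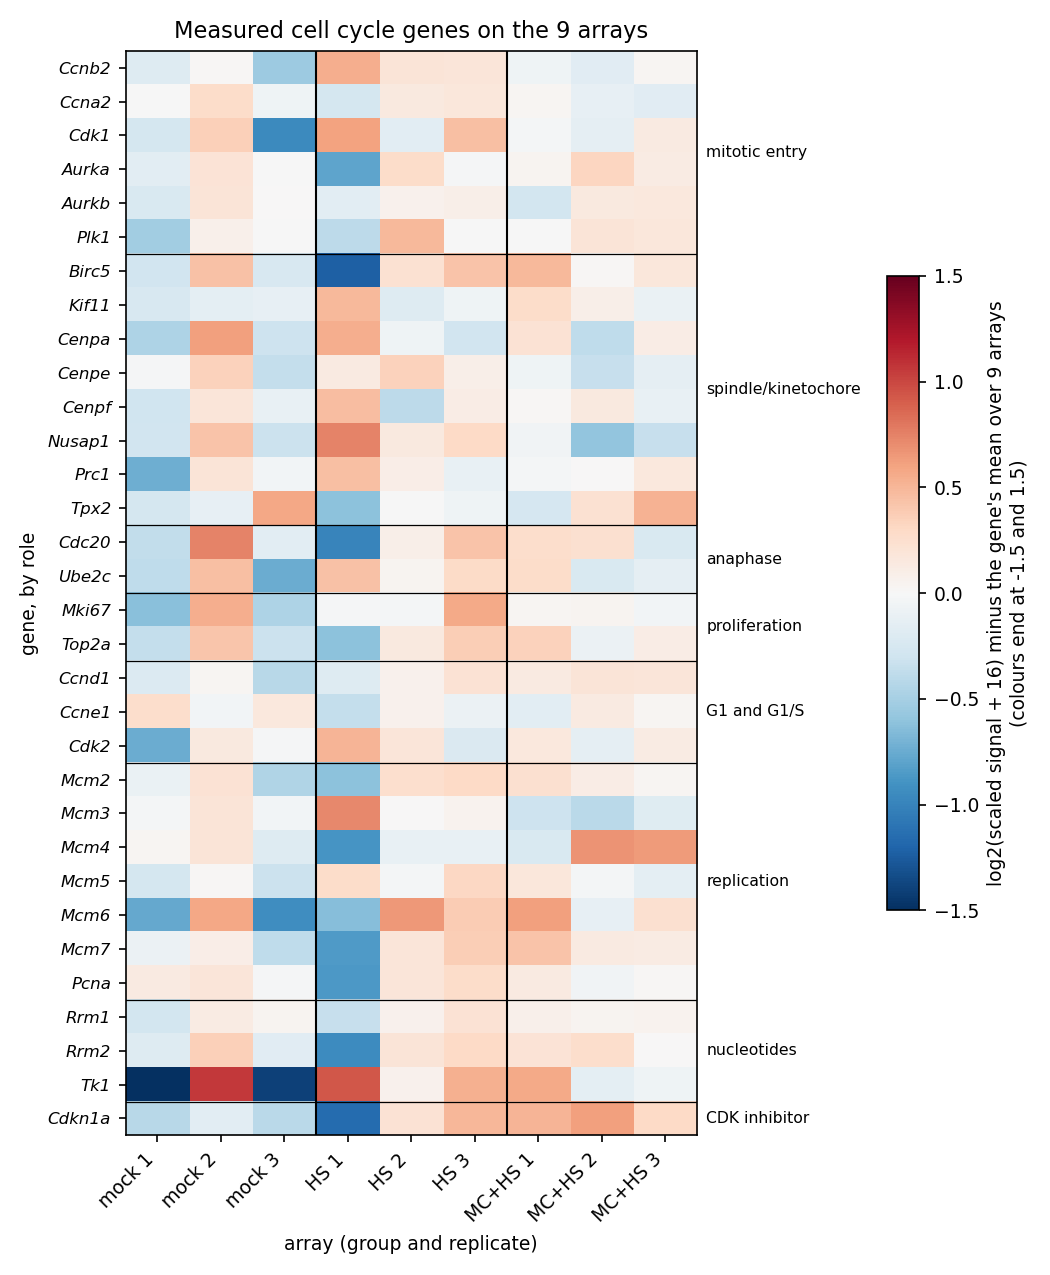
Level of each of the 32 measured members on the 9 arrays, as log2(scaled signal + 16) minus the gene's mean over the arrays, with genes grouped by role and red above and blue below that mean. The mock replicate 2 column is red for most genes between pale or blue columns of mock replicates 1 and 3, HS replicate 1 mixes strong red and strong blue, and the last line, Cdkn1a, is blue on the mock arrays and red on 5 of the 6 vector arrays.

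Averaged over the 32 members, the deviation from each gene's mean over the 9 arrays was -0.31, 0.26 and -0.27 log2 units on the mock arrays, -0.16, 0.11 and 0.19 on HS, and 0.12, 0.02 and 0.05 on MC+HS. Mock replicate 2 had the highest mean of the 9 arrays, and mock replicates 1 and 3 had the lowest. Over all probe sets the means were 0.08, 0.09 and 0.02 on mock, -0.66, 0.10 and 0.14 on HS, and 0.13, 0.06 and 0.04 on MC+HS, so the split of the mock arrays was not seen over the whole array. It was alike in both phases of the cycle. The 18 genes of M phase and the proliferation markers had means of -0.32, 0.29 and -0.23 on mock, and the 13 genes of G1, replication and nucleotide supply had -0.29, 0.24 and -0.32.

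**Figure D3:**
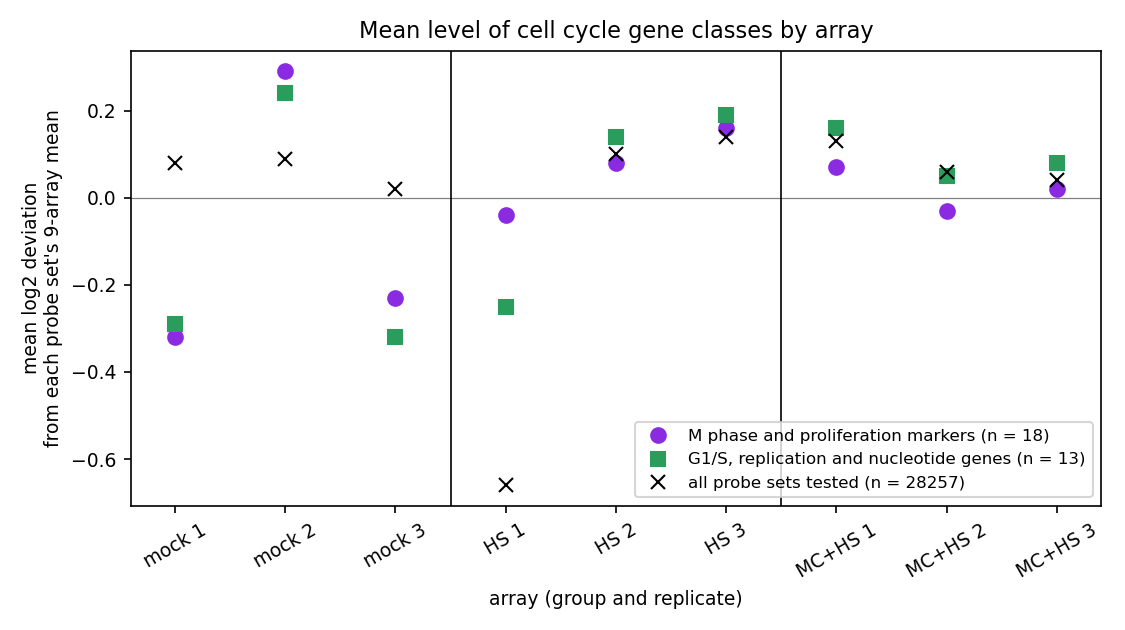
Mean log2 deviation from each gene's mean over the 9 arrays, for 18 M phase and proliferation genes (circles), 13 genes of G1/S, replication and nucleotide supply (squares) and all 28257 probe sets tested (crosses), with 1 set of points per array. Both gene classes stand at 0.29 and 0.24 on mock replicate 2 and between -0.32 and -0.23 on mock replicates 1 and 3, while all probe sets stand between 0.02 and 0.09 on these arrays; on HS replicate 1 the mean of all probe sets is -0.66.

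Markers of infiltrating monocytes moved with mock replicate 2. With 7 of 10 such markers measured, their summed scaled signal was 1892, 3736 and 1870 on the mock arrays, 2536, 8874 and 9444 on HS, and 7007 to 7668 on MC+HS, and mock replicate 2 was the highest mock array in 6 of 7. Plac8 read 230, 976 and 205 on the mock arrays, Ms4a4c 56.1, 318 and 65.8, and Ms4a6c 230, 487 and 129. Markers of T and NK cells, with 8 of 13 measured, summed to 998, 903 and 874 on mock and to 1490 to 3259 on the vector arrays, and were not raised on mock replicate 2. Markers of oligodendrocyte precursors (7 of 8 measured) summed to 7711 to 8254 on mock, those of neuroblasts (6 of 8) to 3636 to 3881, and those of endothelium (8 of 9) to 5604 to 6396, with mock replicate 2 inside a narrow range in each. Homeostatic microglia markers (7 of 8) summed to 4687, 5329 and 4688 on mock. Choroid plexus and ependyma markers (7 of 8) summed to 13497, 14056 and 1791 on mock, lowest on mock replicate 3 and like each other on the other mock arrays. Of 4 red blood cell markers 0 passed the filter. The part of these cells in the level of the proliferation genes was not tested.

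The comparison of HS with mock asks what the vector, purified by centrifugation alone, did to these genes. With all 9 arrays, 0 of the 32 members were called by limma at a Benjamini-Hochberg adjusted p under 0.05, beside 0.775% of all 28257 probe sets. At an unadjusted p under 0.05 there were 2 members, beside 6.67% of all probe sets, and the smallest adjusted p was 0.514. Cdkn1a was the 1 member called once HS replicate 1 was left out, on the higher side, beside 3.29% of all probe sets in either direction and 2.94% higher, and 6 members had an unadjusted p under 0.05, beside 14.2% of all probe sets. The median difference over the 32 members was then 0.24 log2 units, with 26 of 32 above 0, beside 0.03 over all probe sets, of which 55.4% were above 0. From the full set of arrays it was 0.16, with 23 of 32 above 0, beside -0.21 over all probe sets.

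None of the dividing-cell genes themselves was called in HS against mock, and most of their groups overlapped. The class medians, with HS replicate 1 left out, were 0.25 for mitotic entry, 0.12 for spindle and kinetochore, 0.29 for the anaphase-promoting complex partners, 0.40 for Mki67 and Top2a, 0.19 for G1 and G1/S cyclins and kinase, 0.33 for replication and 0.25 for nucleotide supply. HS lay above all mock arrays in 1 member, Ccnb2, beside 4.65% of all probe sets, and below them in 0, beside 10.1%. Ccnb2, a mitotic B-type cyclin, read 132, 155 and 99.9 on mock, 231, 178 and 176 on HS, and 146, 135 and 157 on MC+HS. Its difference was 0.55 ± 0.19 (SE, n = 3 per group; limma, Benjamini-Hochberg adjusted p = 0.514) and 0.43 ± 0.19 without HS replicate 1 (adjusted p = 0.327). Mcm5, a helicase subunit, was the other member with an unadjusted p under 0.05 with all arrays. It read 179, 222 and 172 on mock, 267, 214 and 275 on HS, and 248, 214 and 195 on MC+HS, with a difference of 0.37 ± 0.16 (limma, adjusted p = 0.635). HS replicate 2 of Mcm5 was below mock replicate 2, so these groups overlapped. Cdk1, which had the next smallest p, differed by 0.44 ± 0.32 without HS replicate 1 (limma, adjusted p = 0.605).

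HS replicates 2 and 3, taken without replicate 1, lay above all mock arrays in 5 members, Ccnb2, Ccnd1, Mcm2, Mcm7 and Cdkn1a, beside 21.9% of all probe sets, and below them in 0, beside 13.6%. Ccnd1, which couples growth signals to G1 kinases and is also made by non-dividing glia, read 1030, 1210 and 890 on mock, 1040, 1240 and 1380 on HS, and 1310, 1360 and 1350 on MC+HS. Its difference for HS without replicate 1 was 0.34 ± 0.13 (limma, adjusted p = 0.252), and its 3 measured probe sets ranged from 0.23 to 0.38. Mcm7 read 600, 684 and 485 on mock, 346, 727 and 831 on HS, and 866, 702 and 695 on MC+HS on its brightest probe set, with a difference of 0.40 ± 0.16 (limma, adjusted p = 0.263). Of its 4 measured probe sets 3 were above 0, from -0.02 to 0.49. Rrm1 also differed between its probe sets, at 0.18 ± 0.14 on the brightest and -0.73 ± 0.24 on another (limma, adjusted p = 0.608 and 0.176), so no direction is given for it.

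The brightest members of the other classes showed the same overlap of groups. Ccna2 (cyclin A2), which works in S phase and at mitotic entry, read 267, 329 and 256 on mock, 221, 299 and 305 on HS, and 274, 246 and 238 on MC+HS. Tpx2, which activates Aurora A on the spindle, read 224, 250 and 416 on mock, 173, 271 and 260 on HS, and 226, 322 and 400 on MC+HS on its brightest probe set, and its 4 measured probe sets ranged from -0.30 to 0.28 in HS against mock without HS replicate 1. The groups overlapped in both genes, and Tpx2 was highest on mock replicate 3. Birc5 read 139, 240 and 144 on mock, 64.7, 206 and 239 on HS, and 248, 175 and 196 on MC+HS. Rrm1 read 300, 400 and 376 on mock, 286, 385 and 429 on HS, and 387, 376 and 381 on MC+HS on its brightest probe set. Rrm2, the small ribonucleotide reductase subunit that is made in S phase, read 280, 419 and 286 on mock, 160, 372 and 401 on HS, and 376, 391 and 324 on MC+HS. In Birc5 and Rrm2 mock replicate 2 was again the highest mock array, near the top of the vector arrays in Birc5 and above all of them in Rrm2.

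The intervals show what the arrays could have missed. With HS replicate 1 left out, the 95% interval of the HS difference reached a median of 0.495 log2 units to either side over the 32 members, from 0.23 to 1.43, and 27 of 32 intervals lay within 1 log2 unit of 0. For Mki67 the interval ran from -0.22 to 1.13, and for Top2a from -0.16 to 0.86. For Pcna it ran from -0.10 to 0.35.

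The comparison of MC+HS with mock asks the same of the vector after membrane chromatography, against a mock taken through the same purification. Limma called 0 of the 32 members with all 9 arrays, beside 0.58% of all probe sets, and 0 members had an unadjusted p under 0.05, beside 4.89%. Without HS replicate 1, which enters this comparison only through the shared estimate of the spread, Cdkn1a was called as higher, beside 3.32% of all probe sets in either direction and 2.49% higher, and 3 members had an unadjusted p under 0.05, beside 14.1% of all probe sets. With only the 6 arrays compared Cdkn1a was the 1 member called as well. The median difference over the members was 0.19 log2 units, with 26 of 32 above 0, beside -0.02 over all probe sets, of which 46.3% were above 0.

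MC+HS lay above all mock arrays in 4 members, Kif11, Ccnd1, Mcm7 and Cdkn1a, beside 8.79% of all probe sets, and below all mock arrays in 1, Mcm3, beside 9.84%. The Ccnd1 difference was 0.37 ± 0.11 without HS replicate 1 (limma, Benjamini-Hochberg adjusted p = 0.135). Mcm3 read 123, 147 and 122 on mock, 219, 127 and 131 on HS, and 98.1, 91 and 109 on MC+HS, with a difference from mock of -0.34 that was not called. The class medians without HS replicate 1 were 0.16 for mitotic entry, 0.10 for spindle and kinetochore, 0.11 for the anaphase-promoting complex partners, 0.20 for Mki67 and Top2a, 0.26 for G1 and G1/S, 0.24 for replication and 0.16 for nucleotide supply. The 95% intervals reached a median of 0.445 to either side, and 29 of 32 lay within 1 log2 unit of 0. For Mki67 the interval ran from -0.41 to 0.79, for Top2a from -0.24 to 0.68 and for Pcna from -0.27 to 0.13. HS and MC+HS were compared with the same mock arrays, so their differences from mock share the error of those arrays.

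Cdkn1a stood out by its pattern on its 2 measured probe sets. Probe set 1424638_at, the brighter, read 674, 810 and 680 on mock, 397, 1050 and 1280 on HS, and 1300, 1390 and 1120 on MC+HS. All vector arrays were above all mock arrays except HS replicate 1, which was the lowest of the 9. Probe set 1421679_a_at read 383, 684 and 488 on mock, 784, 852 and 1070 on HS, and 1000, 802 and 943 on MC+HS. Here all 6 vector arrays, HS replicate 1 included, were above all 3 mock arrays.

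Neither probe set of Cdkn1a was called with all 9 arrays. On 1424638_at HS against mock was 0.17 ± 0.39 and MC+HS against mock 0.80 ± 0.39 (limma, Benjamini-Hochberg adjusted p = 0.828 and 1). On 1421679_a_at they were 0.81 ± 0.25 and 0.84 ± 0.25 (adjusted p = 0.409 and 0.421). Both probe sets were called in both comparisons once HS replicate 1 was left out, with smaller standard errors. In HS Cdkn1a then rose 1.6-fold on 1424638_at (0.68 ± 0.14, n = 3 and 2, limma adjusted p = 0.0197) and 1.87-fold on 1421679_a_at (0.90 ± 0.21, limma adjusted p = 0.0412). In MC+HS it rose 1.74-fold on 1424638_at (0.80 ± 0.12, n = 3 per group, limma adjusted p = 0.00364) and 1.78-fold on 1421679_a_at (0.84 ± 0.19, limma adjusted p = 0.0346). The call in HS was lost when a mock array other than replicate 2 was left out too. Without HS replicate 1 and either mock replicate 1 or mock replicate 3 the difference on 1424638_at was 0.63 or 0.64 (limma adjusted p = 0.0744 and 0.0546). In MC+HS the call remained in both cases (limma adjusted p = 0.0208 and 0.0133). Markers of other cells moved with it. The monocyte sum was 1870 to 3736 on mock and 7007 to 9444 on the 5 vector arrays other than HS replicate 1, the T and NK cell sum 874 to 998 and 1490 to 3259, and the endothelial sum 5604 to 6396 and 8003 to 9955. Their part in the level of Cdkn1a was not tested.

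**Figure D4:**
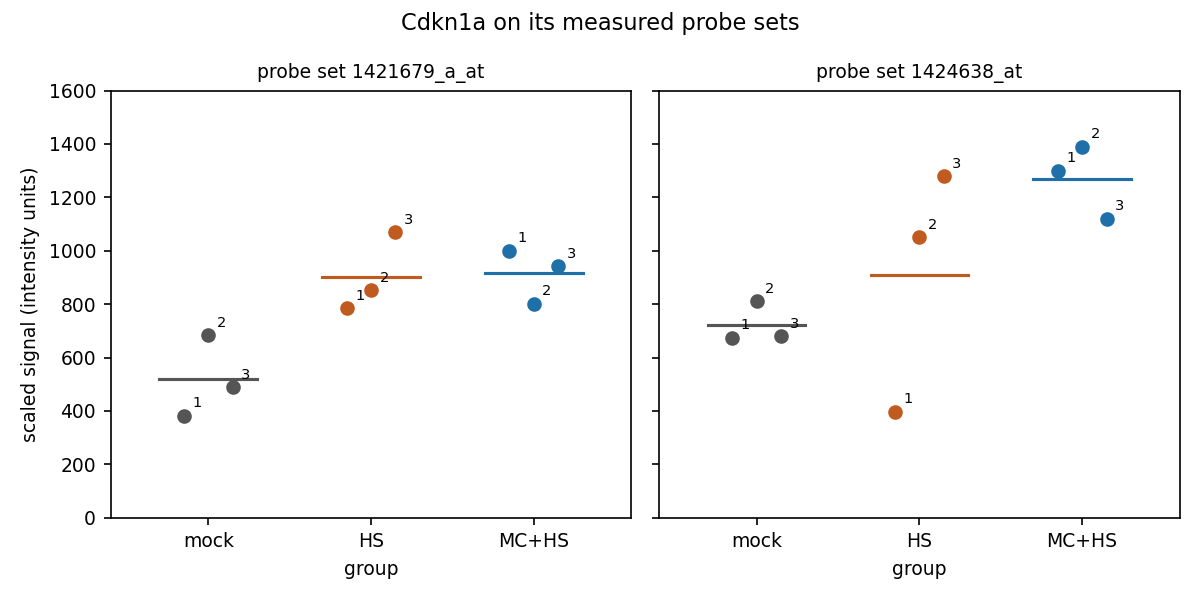
Scaled signal (intensity units, axis from 0) of the 2 measured Cdkn1a probe sets on each array, with replicate numbers beside the points and the group mean as a line. On 1421679_a_at all 6 vector arrays (784 to 1070) lie above the mock arrays (383 to 684); on 1424638_at HS replicate 1, at 397, lies below them while the other 5 vector arrays (1050 to 1390) lie above the mock arrays (674 to 810).

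Cdkn1a was the only 1 of the 32 measured members called without HS replicate 1. Over all probe sets 3.29% were called in HS and 3.32% in MC+HS, in either direction. Its partners Ccne1 and Cdk2, the kinase pair of the G1/S transition, were not called in either comparison. Ccne1 read 381, 306 and 353 on mock, 242, 330 and 296 on HS, and 281, 349 and 321 on MC+HS, and Cdk2 read 106, 211 and 186 on mock, 275, 217 and 160 on HS, and 213, 170 and 208 on MC+HS. In both genes the groups overlapped.

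**Figure D5:**
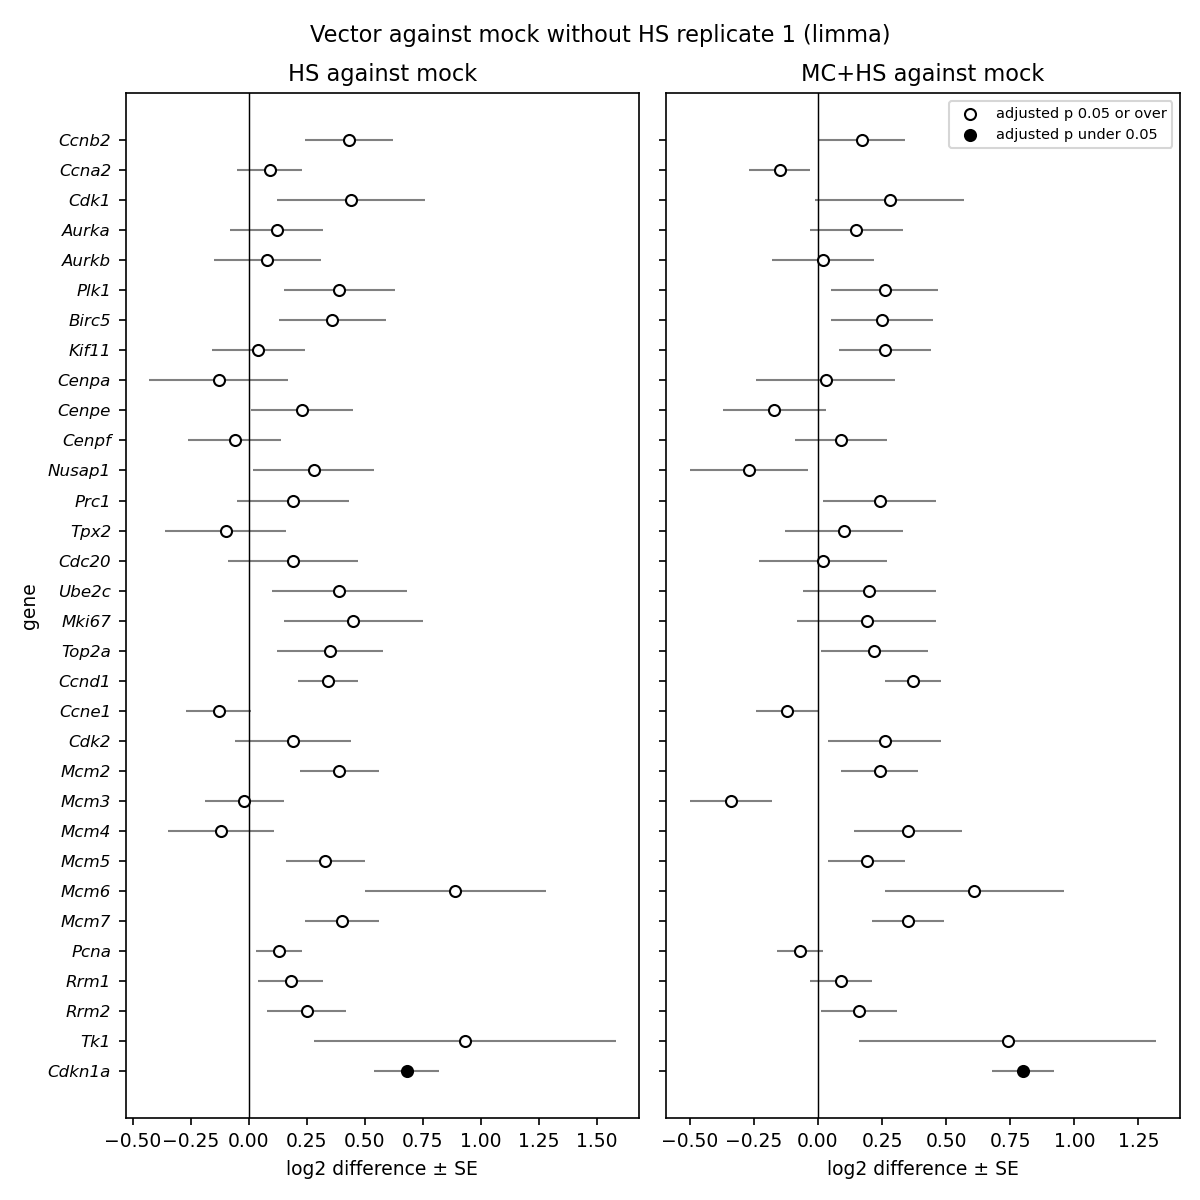
Log2 difference from mock with its standard error (bars) for each of the 32 measured members in HS (left) and MC+HS (right), from limma without HS replicate 1, with filled points for an adjusted p under 0.05. Cdkn1a is the only filled point in each panel, at 0.68 and 0.80, and 26 of the 32 points lie above 0 in each.

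The comparison of MC+HS with HS asks whether the purification changed the response. Limma called 0 of 32 members with all 9 arrays, beside 0% of all probe sets, with 3 at an unadjusted p under 0.05, beside 3% of all probe sets. On the 8 arrays without HS replicate 1 it called 0, beside 0.00354% of all probe sets, with 0 at an unadjusted p under 0.05, beside 7.61%, and the median difference over the members was -0.12 log2 units, with 11 of 32 above 0, beside -0.05 over all probe sets. The 3 members with the smallest p with all arrays were Nusap1, Mcm3 and Mcm4. Nusap1, a microtubule-binding protein of the spindle, read 94.1, 164 and 91.5 on mock, 208, 132 and 149 on HS, and 113, 73.1 and 89.5 on MC+HS. MC+HS lay below HS with no overlap, with a difference of -0.72 ± 0.26 (limma, Benjamini-Hochberg adjusted p = 0.728), and of -0.55 ± 0.26 without HS replicate 1 (adjusted p = 0.673). Mcm3, whose values are given above, differed by -0.56 ± 0.21 (limma, adjusted p = 0.728). Mcm4, another helicase subunit, lay the other way, with 698, 781 and 597 on mock, 364, 634 and 632 on HS, and 579, 1100 and 1070 on MC+HS, a difference of 0.72 ± 0.31 (limma, adjusted p = 0.728) with overlapping groups.

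MC+HS was below HS without overlap in 4 members, Ccnb2, Cenpe, Nusap1 and Mcm3, beside 2.88% of all probe sets, and above it in 0, beside 5.14%. Against HS replicates 2 and 3 alone it was below in 7 members, Ccnb2, Ccna2, Cenpe, Nusap1, Mcm2, Mcm3 and Pcna, beside 16.7% of all probe sets, and above in 0, beside 7.59%. For Cdkn1a the difference without HS replicate 1 was 0.12 ± 0.14 (limma, adjusted p = 0.855), with a 95% interval from -0.18 to 0.42. A difference between the purifications of more than 0.42 log2 units in either direction therefore lay outside the interval for this probe set. For Nusap1 the interval ran from -1.12 to 0.02.

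Leaving out mock replicate 2 as well as HS replicate 1 gave more calls among the members, and this choice was made with the members' values known, so it is a description of how far 1 control array decided the result. Against mock replicates 1 and 3, HS was called in 3 members, Cdkn1a, Mcm6 and Tk1, beside 3.78% of all probe sets in either direction and 3.47% higher, with 15 of 32 at an unadjusted p under 0.05, beside 13.8% of all probe sets. MC+HS was called in 4, Cdkn1a, Tk1, Mcm6 and Ccnd1, beside 3.45% in either direction and 2.98% higher, with 12 at an unadjusted p under 0.05, beside 13%. All were higher than mock. The median difference over the members was 0.43 in HS and 0.36 in MC+HS, with 29 and 27 of 32 above 0, beside 0.03 and -0.01 over all probe sets. Leaving out HS replicate 1 with mock replicate 1 or with mock replicate 3 gave 0 members called in HS and 1, Cdkn1a, in MC+HS.

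Against these 2 mock arrays Tk1 differed by 1.77 ± 0.37 in HS and 1.59 ± 0.33 in MC+HS (limma, Benjamini-Hochberg adjusted p = 0.0192 and 0.0231). From all 9 arrays its differences were 1.14 ± 0.63 and 0.74 ± 0.63 (adjusted p = 0.635 and 1). Mcm6 differed by 1.36 ± 0.26 in HS and 1.09 ± 0.24 in MC+HS (limma, adjusted p = 0.0122 and 0.0289), on 1 of its 2 measured probe sets. In neither gene were all arrays of any group above the background line. Ccnd1, which stood above the line, differed by 0.48 ± 0.11 in MC+HS (adjusted p = 0.0461) and by 0.45 ± 0.13 in HS (limma, adjusted p = 0.0942). Mki67 differed by 0.82 ± 0.21 and 0.55 ± 0.19 (limma, adjusted p = 0.0604 and 0.205) and was not called. Leaving out mock replicate 2 alone, with HS replicate 1 kept, gave 0 members called in any comparison, beside 0.849% of all probe sets in HS, 0.665% in MC+HS and 0% between the vector groups. At an unadjusted p under 0.05 there were 8, 4 and 2 of the 32 members in the same order, beside 5.34%, 4.3% and 2.19% of all probe sets.

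The wider cell cycle and p53 genes, 93 measured genes in 5 lists that hold none of the 38, were read in the same way. Limma called 0 of 93 in any comparison with all 9 arrays, with 10 at an unadjusted p under 0.05 in the HS comparison with mock, 6 in that of MC+HS and 3 between the vector groups, beside 6.67%, 4.89% and 3% of all probe sets. Leaving out HS replicate 1, 0 of 16 further cyclins, CDKs and their inhibitors, 0 of 25 further replication genes, 0 of 23 further mitosis genes and 0 of 16 p53 targets and growth arrest genes were called in HS or MC+HS against mock. Over all probe sets 3.29% in HS and 3.32% in MC+HS were called in either direction. In this fit 20 of the 93 genes had an unadjusted p under 0.05 in HS and 20 in MC+HS. Over all probe sets the shares were 14.2% and 14.1%. Between the vector groups it was 5 of the 93, beside 7.61% of all probe sets. Of 13 E2F, Rb, Myc and DREAM factors, 1 rose and 1 fell in HS and 1 fell in MC+HS. Beside these, 2.94% of all probe sets were higher and 0.354% lower in HS, and 0.828% lower in MC+HS. Rbl1, the pocket protein p107, a target of E2F that is made in S phase, read 89.5, 153 and 114 on mock, 128, 215 and 222 on HS, and 161, 189 and 185 on MC+HS, and rose in HS by 0.82 ± 0.20 (limma, adjusted p = 0.0499). In MC+HS the difference was 0.55 ± 0.18 (limma, adjusted p = 0.153).

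Mycn, a Myc family transcription factor, read 402, 346 and 321 on mock, 112, 243 and 210 on HS, and 232, 232 and 236 on MC+HS. All 6 vector arrays lay below all 3 mock arrays, and it fell by 0.62 ± 0.13 on the log2 scale in HS and fell by 0.57 ± 0.12 in MC+HS without HS replicate 1 (limma, adjusted p = 0.0295 and 0.0247). Without mock replicate 2 as well its differences were -0.63 ± 0.16 and -0.59 ± 0.15 and were not called (limma, adjusted p = 0.0565 and 0.0538). Among the p53 targets, which share with Cdkn1a a response to p53, the values went both ways and none was called. Without HS replicate 1, 5 of 16 had an unadjusted p under 0.05 in HS and 8 of 16 in MC+HS. Over all probe sets the shares were 14.2% and 14.1%. Mdm2, which marks p53 for degradation, differed by 0.29 ± 0.12 in HS (limma, adjusted p = 0.3). Gadd45a, a growth arrest gene, differed by -0.57 ± 0.16 and -0.58 ± 0.15 (limma, adjusted p = 0.113 and 0.066), and Btg2, an antiproliferative gene, by 0.60 ± 0.15 in MC+HS (limma, adjusted p = 0.0594).

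In the wider lists mock replicate 2 was the highest mock array in 17 of 23 mitosis genes and 12 of 16 cyclins, CDKs and inhibitors. It was so in 15 of 25 replication genes, 7 of 16 p53 targets and 2 of 13 E2F, Rb, Myc and DREAM factors. Over all probe sets the share was 33.2%. Pttg1 (securin), which keeps sister chromatids from separating until anaphase, read 545, 1360 and 476 on mock, 1450, 1560 and 1940 on HS, and 1850, 1100 and 1130 on MC+HS. Its mock replicate 2 thus read among the vector arrays and its mock replicates 1 and 3 below all of them, as in Mki67, and it was not called without HS replicate 1 (1.28 ± 0.37 in HS, limma adjusted p = 0.117). Against mock replicates 1 and 3 alone it was called in both vector groups, at 1.74 ± 0.23 in HS and 1.34 ± 0.21 in MC+HS (limma adjusted p = 0.000757 and 0.00292). Both Pttg1 and the mock array left out were chosen after the values were seen. Leaving out the high mock array raises such a difference and lowers its spread, so the calls of that fit are a description only. In that fit, without HS replicate 1 and mock replicate 2, 5 of the 93 wider genes were called in HS and 5 in MC+HS, all higher, beside 3.47% and 2.98% of all probe sets higher. In HS they were the mitosis genes Pttg1, Kif2c and Cdca8, with Rbl1 and Ccnd3, and in MC+HS Pttg1, Kif2c, Rbl1, Ccnd3 and the replication gene Gins2.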

How the data were processed

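Brain RNA of 9 mice was hybridized to 9 arrays, 3 per group. The deposited table gives a linear intensity for each probe set on each array. Per the submitters' processing notes the software was GCOS, version 1.4.0.036. Summarisation, scaling and genome build are not given in the sources used here, and no detection calls were used here. Platform annotation gave 1 symbol to 34945 of 45101 probe sets, several to 932 and none to 9160.

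Signals were turned into log2(signal + 16), on which scale differences of dim genes are understated, and array medians were moved to a common value. Probe sets above the 40th percentile of their array on at least 3 arrays, without 64 control probe sets, were tested (28257 probe sets, 13331 genes), so a dim gene could pass through any 3 arrays. Scaled signals are these values turned back. Limma 3.58.1 in R 4.3.3 (statmod 1.5.0) was fitted with eBayes and an intensity trend on all 9 arrays, with Benjamini-Hochberg adjustment over all probe sets of a contrast, two-sided, called under 0.05. The brightest probe set stood for a gene. The scripts were tested on simulated data.

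The members and gene lists were chosen with earlier results of these data known. Given in full were members called with or without HS replicate 1, those with the smallest p or the brightest signal, Cdkn1a, Mki67 and Top2a, and called genes of the wider lists. The p53 response element and the GC box were added to the promoter search after the values were seen. Bub1, Cdk2 and other unlisted examples were likewise chosen after their values were seen, as were Mdm2, Gadd45a, Btg2, Pttg1 and the genes called without mock replicate 2 of the wider lists. Promoters came from a RefSeq table of build GRCm38.p6. The array carries no sequence of its own in the files used. Alternatives were pseudocounts of 1 and 64, other filters, quantile normalization or no scaling, no trend, a robust prior, array weights, only the 6 arrays compared, the replicate number as a block, a gene's mean over probe sets, arrays left out and other background lines.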

Additional observations from a re-analysis of the deposited data

How the results depend on the processing

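With all 9 arrays, 0 members were called in each comparison under quantile normalization, unscaled arrays, a pseudocount of 1 or 64, a filter at the 60th percentile or none, a robust prior, no intensity trend and the mean of a gene's probe sets. Array quality weights gave 5 members for HS against mock, 1 for MC+HS against mock and 8 for MC+HS against HS. For HS against mock these weights also gave the highest count over all probe sets, given below. As a share of those tested, that count was larger than the count of members. That weighting stopped before it converged and gave HS replicate 2 a weight of 48.7 and HS replicate 1 of 0.0148, so its counts rest largely on 1 array. With only the 6 arrays compared, 1 member (Cdkn1a) was called for MC+HS against mock and 0 in the others. With arrays left out, the count ran from 0 to 3 for HS against mock, from 0 to 4 for MC+HS against mock and was 0 throughout for MC+HS against HS. The counts above 0 came without HS replicate 1, alone or with a mock array. With the replicate number as a block, 0 members were called in each comparison. The deviations of same-numbered arrays from their group means had correlations from -0.168 to 0.287. Arrays of unlike number were not set beside them, so these values do not tell whether same-numbered samples share more than a number.

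Over all probe sets the count called ran from 15 (only the 6 arrays compared) to 7776 of 28257 (array weights) for HS against mock, from 10 to 2146 for MC+HS against mock and from 0 to 6536 for MC+HS against HS. With the replicate block it was 148, 95 and 0. With no scaling it was 69 for MC+HS against mock. The count of members above background was 29 with the 40th percentile of all probe sets as the line, 30 with HS judged on replicates 2 and 3, an alternative chosen after seeing the data, and 11 with the 99th percentile of the reference probe sets. Some small, uncalled differences changed sign. For HS against mock, Cdkn1a went from 0.17 to -0.15 without HS replicate 3 and to -0.01 without HS replicate 2, Mcm7 from 0.03 to between -0.21 and -0.10 without HS replicate 2, HS replicate 3 or mock replicate 3, and Ccnd1 from 0.23 to -0.05 with the mean of its probe sets. For MC+HS against mock, Mki67 went from 0.19 to -0.03 without mock replicate 1. For MC+HS against HS, Mcm6 went from 0.11 to -0.27 and Mcm7 from 0.33 to -0.05 without HS replicate 1, and Ccnd1 from 0.14 to -0.24 with quantile normalization. With 14 members above the background line in no group, their signal over background limits what could be called.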
